A study of Mus musculus with 6 samples.

Results

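The circRNAs described here were detected at all 3 stages of white adipogenesis. They were chosen by their read counts alone, as the circRNAs with 2 or more reads across the back-splice junction in each of the 6 libraries, and 1012 of the 3662 circRNAs in the deposited table met the rule (27.6%). They held 170875 of the 243190 reads and came from 754 of the 2018 parental genes. The cells were preadipocytes grown from the stromal vascular fraction (SVF), which is what a digested fat pad leaves once adipocytes float off, of inguinal white adipose tissue (WAT) of female C57BL/6 mice (C57BL/6J in the study's methods) 6 weeks old. D0 libraries came from proliferating cells before induction. D4 libraries came from cells given insulin, dexamethasone (a glucocorticoid) and 3-isobutyl-methylxanthine (an inhibitor of phosphodiesterases) for 4 days, and D8 libraries from cells then kept for 4 more days in insulin and T3, the thyroid hormone. Each stage had 2 replicates, and in all 6 libraries rRNA and linear RNA were removed before sequencing. The SVF also holds endothelial cells, pericytes and fibroblasts, and the cells were not sorted, so in these bulk samples fewer cells of a type and less RNA per cell cannot be told apart.

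A circRNA forms when a splice donor is joined to an acceptor upstream of it, which closes an exon or several exons into a ring without free ends. Such rings withstand exonucleases that digest linear RNA and turn over slowly, and their level depends on transcription of the parental gene, on how often back-splicing is used in place of linear splicing and on dilution by cell division. Long flanking introns and inverted repeats within them are known to favour back-splicing, and the second exon of a gene is a common start of a circle.

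Levels are given as reads or as circCPM, which scales reads to 1000000 back-splice reads a library. Library totals were 30110 and 32310 reads at D0, 43069 and 41658 at D4, then 45371 and 50672 at D8, so 1 read was worth between 33.2 circCPM in the smallest library and 19.7 in the largest. The 1012 circRNAs took 69.2 to 72.5% of the reads of a library, with 95% Wilson intervals from 68.8 to 69.6% for the lowest share and from 72.03 to 72.9% for the highest. These intervals cover counting error only, since no molecular identifiers tell copies made by PCR apart. Marker mRNAs of the cells could not be read after the removal of linear RNA. As parental genes, 5 fat cell and precursor markers (Cd36, Lipe, Lpl, Pdgfra and Pparg) and Emr1, which marks macrophages, had circRNAs in the table, and 0 of these were detected in all 6 libraries.

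The back-splice junctions of the 12 circRNAs with the highest mean circCPM are shown because they are the sequence that tells each circle from its linear mRNA. Each line gives the last 15 bases of the circle in lower case and its first 15 bases in capitals, 5′ to 3′ on the strand of the gene, read from the mouse genome build mm9.
Nfix: ttgtccacactccggGATGAGTTCCACCCG
Hipk3: atctcgctactacagGTATGGCCTCACAAG
Pvt1: agctccctctaaaatGTCTGATTTTCTTAA
Med13l: atcatgaactgcaggGCTGAACTCACAGGA
Mettl9: cctatgtagaaaacgTGGTATGTGTGCAAC
Lrch3: gggatttggatcctgACCTGTCACGAAATC
Cnot6l: ctctaggtttaacagACTAATAGGGATGCC
Svep1: agcatgagtgcacagCAAATCCTTCGTCAC
Rbm14: acacagagtttcaagGTAATTGGCGTTCCG
Phf21a: ttgagtgagaaacagGGGACTGGAGAGCTG
Gm9762: aacagatagagaaaaGAATTGAATGACCTG
Erbb2ip: atgtcagcaaaaatgAATGTTGGCTCAATT

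The highest mean belonged to the circle of Nfix, a transcription factor of the nuclear factor I family, which consists of exon 2 alone (chr8:87295683-87296214, minus strand). It had 19097 and 10616 circCPM at D0, 14976 and 12435 at D4, then 19418 and 15512 at D8. D0 replicate 2 was the lowest and D8 replicate 1 the highest, so D0 overlapped with the other stages, while both D8 libraries were above both D4 libraries. The circle of Hipk3, a nuclear protein kinase, is likewise exon 2 alone, 1099 bases that hold the start of the coding sequence (chr2:104310906-104312004, minus strand). Its libraries read 10329 and 11142 circCPM at D0, 20084 and 18772 at D4, then 13401 and 9808 at D8. Both D4 libraries were above the other 4, and the D0 and D8 libraries overlapped. Pvt1, a long noncoding RNA gene next to Myc, gave a 318-base circle of exon 2 (chr15:61938703-61939020, plus strand) with 7805 and 13061 circCPM at D0, 11656 and 10514 at D4, then 11373 and 14604 at D8, and no stage stood apart. Med13l codes for a subunit of the kinase module of Mediator, the complex that links transcription factors to RNA polymerase II. Its 238-base circle of exon 2 (chr5:119043342-119043579, plus strand) had 4484 and 6654 circCPM at D0, 11911 and 13995 at D4, then 11351 and 10065 at D8, so both D0 libraries were below all others. These 4 circles each hold a single exon and all start at exon 2.

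The next 4 circles by level hold several exons. Mettl9, which codes for a histidine methyltransferase, gave a circle of exons 2 to 4 (chr7:128191352-128200913, plus strand) with 5746 and 8914 circCPM at D0, 11238 and 11354 at D4, then 10469 and 10065 at D8. Exons 2 to 6 of Lrch3, a gene for a leucine-rich repeat protein, formed a circle (chr16:32950378-32961830, plus strand) at 4218 and 6469 circCPM at D0, 11586 and 10442 at D4, then 6678 and 5111 at D8. In both circles the D0 libraries were below the D4 libraries, while for Lrch3 D0 and D8 overlapped. Cnot6l, a deadenylase subunit of the CCR4-NOT complex that shortens mRNA tails, gave a circle of exons 2 to 4 (chr5:96557962-96563151, minus strand) with 4218 and 4797 circCPM at D0, 10541 and 9842 at D4, then 5973 and 7874 at D8. The circle of Svep1, an extracellular matrix protein, holds exons 2 and 3 (chr4:58188803-58192579, minus strand) and had 4318 and 3776 circCPM at D0, 6942 and 6697 at D4, then 9345 and 7874 at D8. It was lowest in both D0 libraries and highest in both D8 libraries, without overlap between any 2 stages.

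Of the last 4, the Rbm14 circle (chr19:4792398-4794009, minus strand) lies in the region of Rbm14 and Rbm4, genes for RNA-binding proteins, and no annotated transcript holds both of its ends as exon ends. It had 6842 and 5138 circCPM at D0, 7314 and 6073 at D4, then 5532 and 5664 at D8. Phf21a, a subunit of the LSD1 histone demethylase complex, gave a circle of exons 3 to 7 (chr2:92054206-92070881, plus strand) with 7938 and 6004 circCPM at D0, 4644 and 6721 at D4, then 5422 and 5605 at D8. In the Rbm14 circle both D4 libraries were above both D8 libraries and D0 overlapped with either stage, and in the Phf21a circle both D0 libraries were above both D8 libraries and D4 overlapped with either. The circle placed at Gm9762 (chr3:78770324-78770697, minus strand) had 4417 and 4116 circCPM at D0, 7198 and 6553 at D4, then 5620.3 and 5368 at D8, with both D0 libraries below the others. Its sequence has 2 near copies elsewhere in mm9, with an identity of up to 95.2%, so the locus of origin is uncertain. Erbb2ip (now Erbin), a scaffold of the ERBB2 receptor, gave a circle of exons 2 to 4 (chr13:104674223-104679365, minus strand) with 4052 and 4581 circCPM at D0, 5572 and 6313 at D4, then 5554 and 6335 at D8. Here too both D0 libraries were the lowest.

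**Figure D1:**
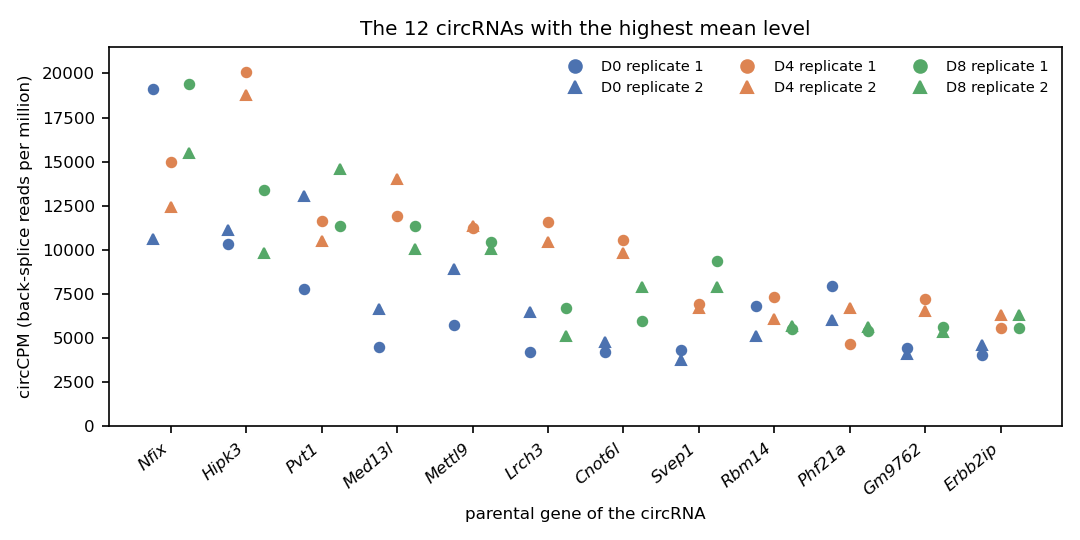
Level of the 12 circRNAs with the highest mean in each library, in circCPM on a linear axis, with circles for replicate 1, triangles for replicate 2 and a colour for each stage. The Nfix circle reached 19418 circCPM on D8 and the Hipk3 circle 20084 on D4, while the lowest point of the plot is the Svep1 circle on D0 with 3776.

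Below these 12 the levels fell off quickly. The median circRNA of the set had 89 reads over the 6 libraries and a mean of 370.0 circCPM, with quartiles of 56.8 and 157 reads, and the range ran from 19 to 3748 reads. Only 149 of the 1012 had 20 or more reads in every library, and 19 had 100 or more. The 10 most abundant of each library, taken anew in each, had 11.8 to 15.9% of the set's reads there. Of the 50 circRNAs with the highest stage mean on D0, on D4 and on D8, 28 were the same on all 3 days. The highest stage mean fell on D0 for 418 circRNAs (41.3%), D4 for 304 and D8 for 290. Membership by 2 reads in every library asked for a higher circCPM at D0 than later. There 1 read was worth 33.2 and 30.95 circCPM, against 23.2 and 24 at D4, then 22.04 and 19.7 at D8. These counts were not compared with those of all circRNAs, and the part of the rule in them was not tested.

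Since the rule used the counts, the levels and the number of circRNAs are a description without a test. At the threshold, 125 circRNAs had a lowest count of 2, among them a Pcsk5 circle with 2 and 7 reads at D0, 59 and 68 at D4, then 31 and 14 at D8 and a Phkb circle with 2 and 11 reads at D0, 19 and 24 at D4, then 20 and 19 at D8. Just outside were 690 circRNAs listed in 5 of the 6 libraries and at 0 in the other, of which 17 had 20 or more reads in each of the 5. One such circle of Slc10a7 had 0 and 83 reads at D0, 293 and 212 at D4, then 159 and 184 at D8, and a circle of Mcph1 had 86 and 86 at D0, 61 and 69 at D4, then 0 and 75 at D8. The rule thus leaves out abundant circles with a single 0.

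Most of the set was made of exons joined at annotated splice sites. Both ends coincided with exon ends of the parental gene in 946 circRNAs (93.5%), against 91.1% of the 2650 other circRNAs, and 1007 (99.5%) were flanked by AG before and GT after the circle. By position, 971 were exonic, 41 intronic and 0 intergenic. For 943 a GENCODE transcript contained both ends, and these circles held a median of 3 exons (quartiles 2 and 4, at most 12) and a median spliced length of 440.0 bases. The other circRNAs also had a median of 3 exons and a length of 444 bases. Genomic spans ran from 152 bases in Gm20521 (chr14:55515958-55516109, plus strand) to 191363 bases in Slc10a7 (chr8:81039485-81230847, plus strand), with a median of 7045 bases.

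Exon 2 was the first exon in 404 of 943 circles (42.8%), against 748 of 2395 others (31.2%), and exon 5 or a later exon in 32.7% against 43.8%. Circles of a single exon made up 7.74% of the set and 5.22% of the others. Abundance differed between the 2 sets as well, since the others had a median of 19 reads in all. Among circRNAs with a mean of 10 reads or more, exon 2 was the start in 45.8% of 696 set members and in 36.8% of 163 others, and a single exon in 8.05 and 3.68%. The intron before the circle had a median of 13914 bases in the set and 9438.5 in the others, but of 15257 against 17043 bases at a mean of 10 reads or more. No test was run on these shares, because circles of 1 gene share exons and the set was chosen by reads.

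**Figure D2:**
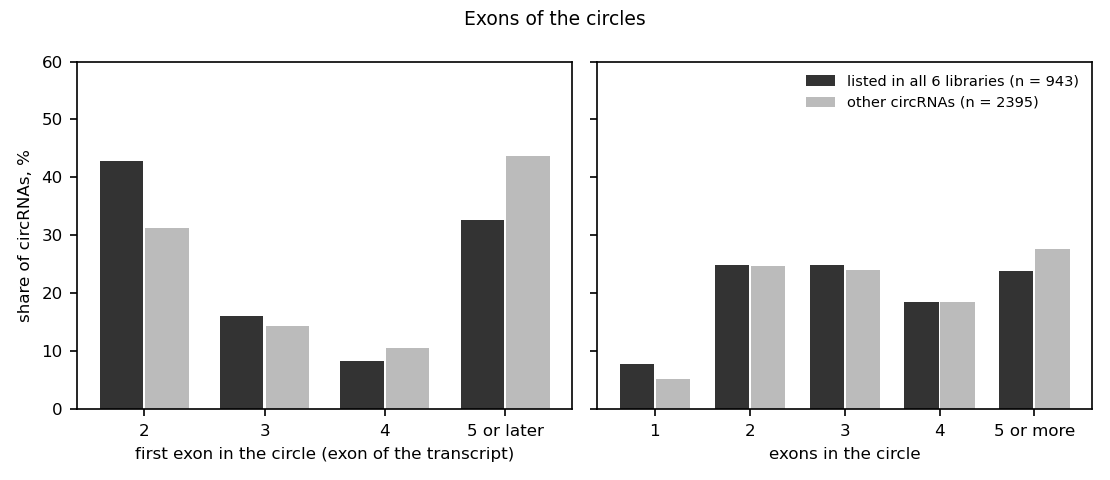
Share of circRNAs, in percent, by the exon at which the circle starts (left) and by the number of exons it holds (right), for the 943 circRNAs of the set and the 2395 others whose ends lie in a single annotated transcript. The bars for a start at exon 2 stand at 42.8 and 31.2%, and those for 5 or more exons at 23.9 and 27.6%.

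Coding sequence alone filled 714 of the 943 circles, and 179 joined 5′ UTR and coding sequence, as given by the transcript with the most exons in the circle, a protein-coding one where there was any. Reverse-complementary matches of 50 bases or more between the 1000 bases before and after the circle, the arrangement that inverted repeats would give, were found in 129 circRNAs of the set (12.7%) and in 384 others (14.5%). Matches of the same length on the same strand were found in 6.62 and 7.21%. The database circBase listed all but 148 circRNAs of the set (14.6% absent), against 43.6% absent among the others. At a mean of 10 reads or more the absent shares were 11.99 and 31.2%. Near copies of the circle elsewhere in the genome (90% identity over 80% of the length) were found for 41 of the 958 circles that could be searched, and for these the assignment of reads to a locus is uncertain.

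The most abundant circles absent from circBase were those at Rbm14 and Gm9762 described above, followed by an Arhgap10 circle (chr8:79906624-79935027, minus strand) with 1162 and 2198 circCPM at D0, 1974 and 1608 at D4, then 4430.1 and 5032 at D8. The D8 libraries of this circle were above the other 4. A circle of Asph, which codes for an aspartate beta-hydroxylase, had 2989 and 1795 circCPM at D0, 1463 and 2016 at D4, then 2446 and 2388 at D8. Nedd4, a ubiquitin ligase, gave one with 1129 and 1207 circCPM at D0, 1602 and 2088 at D4, then 1499 and 1283 at D8. In the Asph circle both D8 libraries were above both D4 libraries and D0 overlapped with either stage, and in the Nedd4 circle both D0 libraries were the lowest.

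Several circles often came from 1 gene. Of the 754 parental genes, 584 had 1 circRNA in the set, 119 had 2, 29 had 3 and 22 had 4 or more. In the 170 genes with more than 1, 297 of 428 circles shared an end with another circle of the set. The circle with the highest stage mean was the same on D0, D4 and D8 in 122 of the 170 genes (71.8%), and in 86 it led in each of the 6 libraries. In 10 genes the leading circle changed between stages and both libraries of each stage gave the same leader, with a tie in 1 library of Apbb2 and in 1 of Prim2 counted for the circle ahead in the other library of that stage.

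Arhgap10, a GTPase-activating protein, had the most circles, 10 of its 20 in the table. They used 7 starts and 7 ends. The leading circle (chr8:79868539-79889059, minus strand) holds exons 14 to 18 and had 5115 and 4859 circCPM at D0, 2949 and 2881 at D4, then 6634 and 6966 at D8. Its share of the summed stage means of the 10 circles on D0, D4 and D8 was 47.1, 33.2 and 35.6%. The circle that shares its 3′ end but starts at exon 16 (chr8:79868539-79875571, minus strand) had 731 and 959.5 circCPM at D0, 1741 and 2040.4 at D4, then 2843 and 2329 at D8. The leading circle was thus lower on D4 than on D0, while the shorter one was higher, in both libraries of each stage. In all 10 circles both D8 libraries were above both D4 libraries, an order that 27.8% of the circRNAs of the table and 25.8% of the set showed. The 10 circles share exons and libraries, so they do not count as 10 independent observations. In edgeR's quasi-likelihood test between D8 and D4, which called 0.0711% of all circRNAs tested, 0 of the 10 passed at an adjusted p under 0.05, and DESeq2 called none of them. The leading circle had the smallest adjusted p of the 10 (log2 fold change 1.22, SE 0.20, adjusted p = 0.147), which ranged over 0.0352 to 0.531 in the alternative settings and was under the threshold in 2 of 14, without D0 replicate 1 and with only circRNAs of a mean of 20 reads or more.

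Fndc3b, also known as a factor for adipocyte differentiation, gave 4 circles, and both D4 libraries exceeded both D0 libraries in all 4. The leading one (chr3:27519527-27542011, minus strand, exons 2 and 3) had 1694 and 3374 circCPM at D0, 4365 and 3529 at D4, then 2557 and 2408 at D8. The circle that adds exon 4 (chr3:27455042-27542011, minus strand) had 4 and 9 reads at D0, 76 and 82 at D4, then 61 and 57 at D8. The leading circle made up 62.0% of the stage mean of the 4 on D0, 42.2% on D4 and 42.2% on D8. Slc10a7, a gene of the bile acid transporter family, had 4 circles, of which 3 share their start and 1 starts further in. Of the level of these 4, which have 1056 of the gene's 2239 reads and do not include the abundant circle at 0 in 1 library given above, the leading circle held 81.7% on D0 and 51.4% on D4, while the longest circle had 10 and 5 reads at D0, 106 and 85 at D4, then 46 and 68 at D8. Again all 4 circles had both D4 libraries above both D0 libraries, an order found in 23% of all circRNAs.

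The share of the leading circle moved less in 2 other genes. At Pvt1 the circle of exon 2 held 95.6, 94.0 and 95.4% of the level of its 4 circles on D0, D4 and D8. Of 5 circles placed at Eif4e3, a gene for an mRNA cap-binding protein, the leading one held 48.2, 47.3 and 45.2%. All 5 were classed as intronic, and no annotated transcript holds both ends of any of them as exon ends. They were placed by lying within the gene model (chr6:99207478-99616791, minus strand), so their parental gene is uncertain. At Atrnl1, an attractin-like gene, 3 circles share their start at exon 22. The longest of these (chr19:57826120-57871993, plus strand) had 498 and 681 circCPM at D0, 2484 and 1800.4 at D4, then 1190.2 and 829 at D8, whereas the shortest had 830.3 and 557 circCPM at D0, 580.5 and 960.2 at D4, then 705 and 395 at D8. By stage mean the longest circle led on D4 and D8, but in D8 replicate 2 the circle of exons 22 to 25 was ahead of it, with 888 against 829 circCPM. The D4 libraries of the longest circle were above the other 4, while those of the shortest overlapped with D0. Arhgap32, another GTPase-activating protein, had 5 circles, and the one of exons 14 to 18 (chr9:32054032-32058372, plus strand) had 465 and 309.5 circCPM at D0, 348 and 600.1 at D4, then 1256 and 1283 at D8. This circle alone of the 5 had a higher mean on D8 than on D4. At Apbb2, an adaptor that binds the amyloid precursor protein, 3 of 5 circles share their 3′ end. The circle of exons 10 and 11 had 29 and 11 reads at D0, 22 and 32 at D4, then 18 and 48 at D8 and that of exons 7 to 11 40 and 23 reads at D0, 16 and 14 at D4, then 18 and 23 at D8, so the longer one led on D0 only.

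Of the 10 genes whose leader changed with both libraries of each stage in accord, 2 more are described. Pde4d, a phosphodiesterase that degrades cAMP, had a circle of exons 9 to 13 (chr13:110724076-110729569, plus strand) with 7 and 13 reads at D0, 119 and 126 at D4, then 9 and 9 at D8 and a second circle with 3 and 4 reads at D0, 29 and 24 at D4, then 17 and 19 at D8. The former led on D0 and D4 and the latter on D8. Glcci1, a gene named for its induction by glucocorticoids, had a shorter circle with 9 and 13 reads at D0, 35 and 43 at D4, then 16 and 13 at D8 and a longer one with 3 and 7 reads at D0, 55 and 51 at D4, then 40 and 42 at D8. The longer circle has a near copy in the genome with 99.0% identity, so the assignment of its reads to this locus is uncertain. The shorter circle led on D0 and the longer on D4 and D8. These changes were not tested.

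Replicates set the size of the difference that could be seen. Across the 1012 circRNAs the Spearman correlation between replicates within D0, D4 and D8 was 0.68, 0.80 and 0.78, and the median fold difference between replicates was 1.57, 1.40 and 1.43. Stage means had Spearman correlations of 0.63 for D0 and D4, 0.63 for D0 and D8, and 0.76 for D4 and D8, with median fold differences of 1.57, 1.60 and 1.46. Means of 2 libraries vary less than single libraries, so the fold differences between stages and between replicates are not on the same footing. The log2 ratio of D4 over D0 from the replicate 1 libraries correlated with that from the replicate 2 libraries with r = 0.43 over all 1012 circRNAs and 0.62 over the 149 with 20 or more reads in every library. For D8 over D0 these values were 0.41 and 0.65. The labels do not say whether the replicate numbers pair the libraries. With the D0 libraries exchanged the values were 0.42 and 0.68 for D4 over D0 and 0.35 and 0.53 for D8 over D0. Points in these correlations are circRNAs of the same libraries, so they describe how far a ratio repeats and carry no p.

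**Figure D3:**
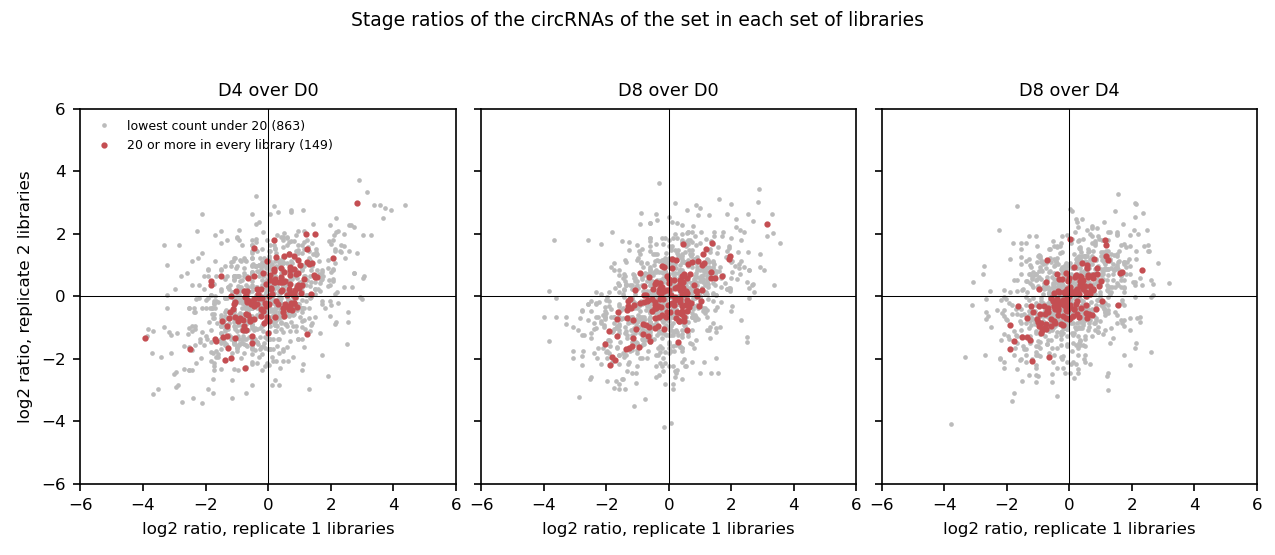
Log2 ratio between stages from the replicate 1 libraries (horizontal) and from the replicate 2 libraries (vertical) for the 1012 circRNAs, with the 149 that had 20 or more reads in every library in red. Points in the upper right and lower left repeat their direction, which was the case for 64.2% of all points and 75.8% of the red ones for D4 over D0.

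Among the 149 circRNAs with 20 or more reads everywhere, the ratio of the highest to the lowest library had a median of 2.25, with 54 under 2 and 16 over 4. The steadiest was a circle of Rasa2, a GTPase-activating protein for Ras (chr9:96492369-96511918, minus strand, exons 2 to 5), with 3354 and 3838 circCPM at D0, 3274 and 3241 at D4, then 3857 and 3532 at D8 and a ratio of 1.19. Camsap1, which binds the minus ends of microtubules, followed with 2424 and 2290.3 circCPM at D0, 2275 and 1968 at D4, then 2116 and 2131 at D8 and a ratio of 1.23, though its circle has 2 near copies in the genome. Ogdh, a subunit of the 2-oxoglutarate dehydrogenase of the citric acid cycle, had 3686 and 4828 circCPM at D0, 3785 and 4105 at D4, then 4276 and 4657 at D8 and a ratio of 1.31. Spred2, an inhibitor of Ras and ERK signalling, had a ratio of 1.36 and the Rbm14 circle above 1.42. In these 5 circles the libraries of different stages overlapped or lay within 1.5 times of each other, and since they were picked for this no test of them is given. The junctions of the 2 steadiest circles without a near copy are shown because they varied least.
Rasa2: gcagcttgttgtacaATGAAGCAAAAAATT
Ogdh: ccacagacaaacttgTCATGGGACATTTTT

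At the other end, a circle of Tulp4, a tubby-like protein, had 7738 and 2507 circCPM at D0, 511 and 984 at D4, then 2535 and 1756 at D8 and a ratio of 15.1. Its D0 replicates lay far apart, and both exceeded both D4 libraries. The circle of A430107O13Rik (now Cped1) had a ratio of 8.88, with both D0 libraries below the other 4. Dcbld2, a transmembrane protein, followed with 6.82, a circle of Ttc3, a ubiquitin ligase, with 6.45, one of Snx5, a sorting nexin, with 5.34 and one of Cacna1c, the pore-forming subunit of an L-type calcium channel, with 4.60. The Ttc3 circle had 3056 and 1826 circCPM at D0, 1347 and 1824 at D4, then 859.6 and 474 at D8, and the Snx5 circle 1827 and 2940.3 circCPM at D0, 1091 and 600.1 at D4, then 551 and 710.5 at D8. In both, the D8 libraries were below the D0 libraries. These circles were picked for their range, and the tests of the A430107O13Rik, Dcbld2 and Cacna1c circles between stages are given with those of all circRNAs next. By edgeR's quasi-likelihood test the other 3 did not pass, with an adjusted p of 0.0547 for Tulp4 on D4 and of 0.0902 for Ttc3 and 0.0889 for Snx5 on D8, each against D0.

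**Figure D4:**
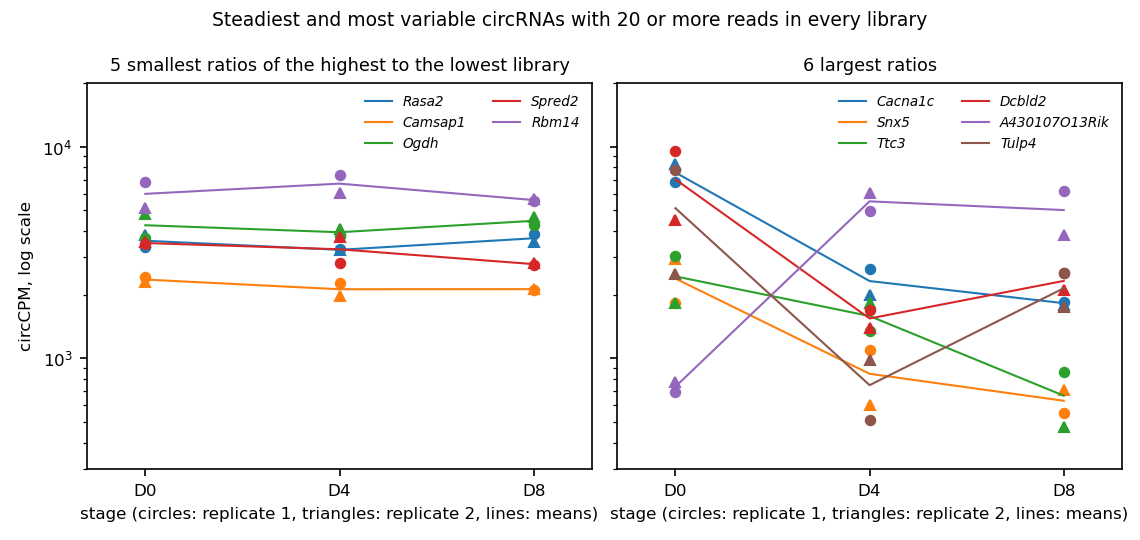
Level in circCPM on a log axis by stage for the 5 circRNAs with the smallest (left) and the 6 with the largest (right) ratio of the highest to the lowest library, among those with 20 or more reads in every library. Circles are replicate 1, triangles replicate 2 and lines join the stage means, with ratios of 1.19 to 1.42 on the left and 4.60 to 15.1 on the right.

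The stages were compared with edgeR's quasi-likelihood test over every circRNA of the table with enough reads, 1407 in all, of which 882 belonged to the set. The other 130 circRNAs of the set had too few reads for the test. By its rule the set holds no circRNA that falls to 0 reads in a library. Between D4 and D0, 32 circRNAs of the set passed at an adjusted p under 0.05, which is 3.63% of those tested, where 3.27% of all circRNAs tested passed, so the share in the set was near that of the table. Of these, 21 were higher on D4 (2.2% of all tested were called higher) and 11 lower (1.07%). With only circRNAs of a mean of 20 reads or more tested, 23 were higher and 25 lower, and with DESeq2 18 were higher and 4 lower. The 32 came from 32 different genes. Without D4 replicate 1, and likewise without D4 replicate 2, 2 of the 32 passed, those of Egfr and A430107O13Rik, and without D0 replicate 1 the count was 16. All 32 kept their direction in every alternative.

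Of the 21 that rose, the 10 with the largest fold are described first, and the junctions of 4 that also passed the test across all 3 stages follow.
A430107O13Rik: tgcggctttgtacaaCTCTTCCCGTCCAGT
Egfr: caactgtacctatggGGAACCAAGGGAGTT
Pde4d: ttctgatcaatacaaTTCAAAAGGATGCTG
Slc10a7: agtccctcaccttggGACCACTGAAGCCAG
Egfr, the receptor of epidermal growth factor, gave a circle of exons 14 and 15 (chr11:16781467-16783616, plus strand) with 432 and 340.5 circCPM at D0, 3878 and 3433 at D4, then 3196 and 3690.4 at D8. Every D4 and D8 library was far above both D0 libraries (log2 fold change 3.33, SE 0.29, adjusted p = 0.00683). The A430107O13Rik circle (chr6:22082229-22095687, plus strand, exons 11 to 15) had 697 and 774 circCPM at D0, 4992 and 6049 at D4, then 6193 and 3848 at D8, again with D0 apart from the rest (log2 fold change 2.99, SE 0.33, adjusted p = 0.0103). Both passed in all 14 alternative fits of this comparison. The Pde4d circle shown above had 232 and 402 circCPM at D0, 2763 and 3025 at D4, then 198 and 178 at D8, so it was high on D4 alone and its D8 libraries were below its D0 libraries (log2 fold change 3.26, SE 0.40, adjusted p = 0.0164). A circle of Pcsk5, a proprotein convertase, had 66.4 and 217 circCPM at D0, 1369.9 and 1632 at D4, then 683 and 276 at D8. Its fold is the largest of the 21 and rests on 2 and 7 reads on D0 (log2 fold change 3.46, SE 0.69, adjusted p = 0.0407).

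The next circles, up to that of Glcci1, had 10 or fewer reads in each D0 library. Tgfbr2, the type II receptor of TGF-beta, gave a circle of exons 3 and 4 (chr9:116038934-116040831, minus strand) with 3 and 7 reads at D0, 65 and 61 at D4, then 45 and 68 at D8, and the D4 and D8 libraries were all above D0 (log2 fold change 3.29, SE 0.48, adjusted p = 0.0254). The longer Fndc3b circle described above passed as well (log2 fold change 3.24, SE 0.44, adjusted p = 0.0225), as did the 191363-base circle of Slc10a7 (log2 fold change 3.29, SE 0.45, adjusted p = 0.0225). Ssbp2, a single-stranded DNA binding protein, had 3 and 6 reads at D0, 45 and 59 at D4, then 22 and 41 at D8 (log2 fold change 3.16, SE 0.56, adjusted p = 0.0334). The longer Glcci1 circle, which has a near copy in the genome with 99.0% identity, likewise had D4 and D8 libraries far above D0 (log2 fold change 3.04, SE 0.50, adjusted p = 0.0302). The tenth, a circle of March3 (now Marchf3), a membrane-bound ubiquitin ligase, had 531 and 959.5 circCPM at D0, 2879 and 3841 at D4, then 1234 and 1421 at D8 (log2 fold change 2.25, SE 0.36, adjusted p = 0.0302), and its D8 libraries lay between those of D0 and D4.

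The other 11 are described next, and a shared function of their genes was not tested. Bckdhb, a subunit of the branched-chain ketoacid dehydrogenase, had 1362 and 898 circCPM at D0, 3878 and 3529 at D4, then 3571 and 2940.5 at D8 (log2 fold change 1.80, SE 0.30, adjusted p = 0.0302), and Hibadh, which acts further down in valine breakdown, had 465 and 712 circCPM at D0, 2275 and 1944 at D4, then 1190.2 and 1243 at D8 (log2 fold change 1.93, SE 0.35, adjusted p = 0.0342). The Hibadh circle has a near copy in the genome with 90.7% identity. Phkb, a subunit of the kinase that starts glycogen breakdown, had 598 and 557 circCPM at D0, 2600.5 and 2160.4 at D4, then 1631 and 1145 at D8 (log2 fold change 2.13, SE 0.35, adjusted p = 0.0302), and Acer3, an alkaline ceramidase, had 631 and 990.4 circCPM at D0, 2786 and 2713 at D4, then 1675 and 1796 at D8 (log2 fold change 1.85, SE 0.32, adjusted p = 0.0302). In the Bckdhb circle D8 overlapped with D4, and in the other 3 it lay between D0 and D4. Fancl, the ubiquitin ligase of the Fanconi anaemia complex, had 565 and 743 circCPM at D0, 2670.1 and 3121 at D4, then 1366 and 1579 at D8 (log2 fold change 2.23, SE 0.31, adjusted p = 0.0225). The Acvr2a circle, from the gene for an activin type II receptor, had 1627 and 3095 circCPM at D0, 6919 and 7249.5 at D4, then 5334 and 4796 at D8 (log2 fold change 1.68, SE 0.31, adjusted p = 0.0343). The remaining 5 were circles of Tmem164, Atrnl1, Rod1 (now Ptbp3, a splicing regulator), Med13l and Cnot6l, with log2 fold changes of 1.73, 1.95, 1.10, 1.31 and 1.27 and adjusted p-values of 0.0343, 0.0407, 0.0407, 0.0342 and 0.0302. In 4 of these 5 circles the D8 libraries were all above the D0 libraries, and the Rod1 libraries of D0 and D8 overlapped.

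In 11 circles the level fell between D0 and D4. The junctions of Cacna1c and Dcbld2 are shown, since these are the most abundant of the 11.
Cacna1c: accaactccaacctgGTTCCAACTATGGGA
Dcbld2: ttatagataaagaagGTGATGGATGTGGAC
The Cacna1c circle of exons 2 and 3 (chr6:119002619-119007533, minus strand) had 6842 and 8264 circCPM at D0, 2647 and 1992 at D4, then 1851 and 1796 at D8, with both D0 libraries far above the other 4 (log2 fold change -1.61, SE 0.25, adjusted p = 0.0302). The Dcbld2 circle (chr16:58424674-58433576, plus strand) had 9498 and 4519 circCPM at D0, 1695 and 1392 at D4, then 2535 and 2112 at D8 (log2 fold change -2.09, SE 0.38, adjusted p = 0.0342). Here the D0 replicates lay far apart, and both exceeded the other 4 libraries. Stk35, a serine/threonine kinase gene, had 3056 and 3188 circCPM at D0, 952 and 1176 at D4, then 969.8 and 1322 at D8 (log2 fold change -1.46, SE 0.30, adjusted p = 0.0455), the smallest change of the 11.

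Fewer reads lay behind the other circles that fell. Smad6, an inhibitory Smad protein, had 33 and 48 reads at D0, 7 and 6 at D4, then 6 and 19 at D8 (log2 fold change -2.96, SE 0.62, adjusted p = 0.0489). Ltbp1, which holds latent TGF-beta in the matrix, had 27 and 46 reads at D0, 5 and 8 at D4, then 9 and 16 at D8 (log2 fold change -2.80, SE 0.58, adjusted p = 0.0464). Crim1, a transmembrane protein that binds BMPs, had 32 and 24 reads at D0, 4 and 4 at D4, then 7 and 10 at D8 (log2 fold change -3.12, SE 0.60, adjusted p = 0.0374). In these 3 circles no D4 library had more than 8 reads. Taf4a, a subunit of the general transcription factor TFIID, had 27 and 27 reads at D0, 3 and 4 at D4, then 10 and 15 at D8 (log2 fold change -3.25, SE 0.60, adjusted p = 0.0342), the largest decrease of the 11. Zfp827, a zinc finger protein, Dlg5, a scaffold protein, and Arhgef40, an exchange factor for small GTPases, had log2 fold changes of -2.68, -2.56 and -2.37 with adjusted p-values of 0.0343, 0.0489 and 0.0374. Nudcd3, a cochaperone, had 26 and 22 reads at D0, 5 and 4 at D4, then 27 and 31 at D8 (log2 fold change -2.74, SE 0.54, adjusted p = 0.0405), and unlike in the other 10 its D8 libraries lay nearer to D0 than to D4.

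**Figure D5:**
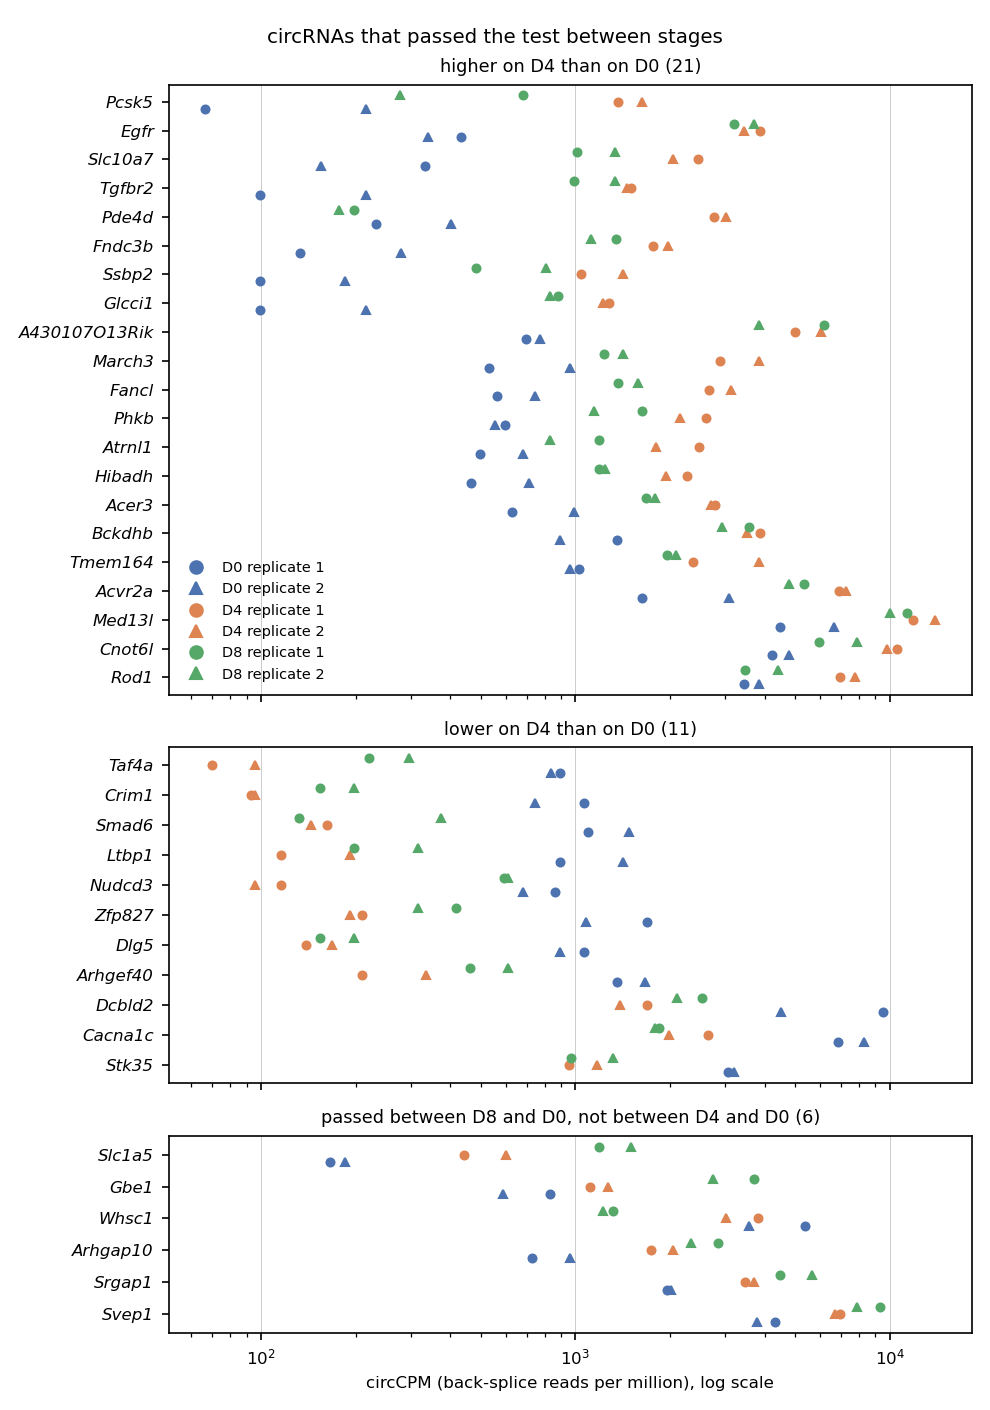
Level in circCPM on a log axis of the circRNAs of the set that passed the test between stages, ordered within each panel by the size of the fold change, with circles for replicate 1, triangles for replicate 2 and a colour for each stage. In 20 of the 21 circles of the upper panel and 10 of the 11 of the middle panel the D8 mean lies between the means of D0 and D4.

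The position of D8 was described for these 32 without a test, since they were chosen by D4 against the same D0 libraries. Of the 21 higher on D4, 19 had both D8 libraries above both D0 libraries. That order was found in 25.1% of all circRNAs and in 23% of the set. The D8 mean was below the D0 mean in 1 of the 21, that of Pde4d. Of the 11 lower on D4, all 11 had both D8 libraries below both D0 libraries, an order whose share over all circRNAs is not given here.

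Between D8 and D0, 12 circRNAs of the set passed, 1.36% of those tested, where 1.49% of all tested passed. Of these, 10 were higher on D8 (1.21% of all tested) and 2 lower (0.284%), while with only circRNAs of a mean of 20 reads or more tested 16 were higher and 14 lower. The comparison shares its D0 libraries with the one between D4 and D0. The circles of Egfr (log2 fold change 3.24, SE 0.29, adjusted p = 0.00462), A430107O13Rik (log2 fold change 2.86, SE 0.33, adjusted p = 0.0137), Tgfbr2 (log2 fold change 2.94, SE 0.48, adjusted p = 0.0329), Fndc3b (log2 fold change 2.65, SE 0.44, adjusted p = 0.0343) and Bckdhb (log2 fold change 1.62, SE 0.30, adjusted p = 0.0498) rose, and the Cacna1c circle fell (log2 fold change -1.95, SE 0.25, adjusted p = 0.0245). The Bckdhb call passed in 2 of 14 alternative settings. Without D4 replicate 1, and likewise without D4 replicate 2, 3 of the 12 passed, those of Egfr, A430107O13Rik and Cacna1c, while the count was 7 without D8 replicate 1 and 6 without D8 replicate 2. Fitted to the D0 and D8 libraries alone, edgeR called 0 circRNAs of the set, with 125 at an unadjusted p under 0.05, and DESeq2 on all 6 libraries called 9, of which 8 were among the 12.

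The remaining 6 circles of this comparison did not pass between D4 and D0. Gbe1, the glycogen branching enzyme, had 830.3 and 588 circCPM at D0, 1114 and 1272 at D4, then 3703 and 2743 at D8, with both D8 libraries the highest (log2 fold change 2.28, SE 0.34, adjusted p = 0.0309). Slc1a5, a transporter of glutamine and other neutral amino acids, had 5 and 6 reads at D0, 19 and 25 at D4, then 54 and 76 at D8 (log2 fold change 3.00, SE 0.48, adjusted p = 0.0329). Srgap1, a GTPase-activating protein of Slit and Robo signalling, had 1959.5 and 2012 circCPM at D0, 3459.6 and 3697 at D4, then 4474 and 5684 at D8 (log2 fold change 1.45, SE 0.23, adjusted p = 0.0329). In these 3 circles D4 lay between D0 and D8 without overlap. The Svep1 circle described among the most abundant (log2 fold change 1.19, SE 0.21, adjusted p = 0.0471) and the shorter Arhgap10 circle (log2 fold change 1.71, SE 0.31, adjusted p = 0.0488) had the same order. These 2 calls were near the threshold, and that of Svep1 passed in 2 and that of Arhgap10 in 1 of 14 alternative settings. Whsc1 (now Nsd2), a histone methyltransferase, had 5380.3 and 3559 circCPM at D0, 3808 and 3025 at D4, then 1322 and 1224 at D8 and fell (log2 fold change -1.72, SE 0.30, adjusted p = 0.0423), with D0 and D4 overlapping and D8 apart. The junctions of the Gbe1 and Srgap1 circles, from genes of glycogen storage and of the cytoskeleton, are given as examples of a rise between D0 and D8. Neither circle passed between D8 and D4.
Gbe1: atttatctattccagGTAGTTATTACTAGT
Srgap1: cggatgtttaaaaagAAATCCGAGCCCAGC

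Between D8 and D4 a single circRNA of the set passed, that of Pde4d, where 0.0711% of all tested did. It fell from 2763 and 3025 circCPM at D4 to 198 and 178 at D8 (log2 fold change -3.92, SE 0.41, adjusted p = 0.021). The call was lost without D4 replicate 1 and without D4 replicate 2, where edgeR called 0 circRNAs of the set with 49 and 45 at an unadjusted p under 0.05, and without D0 replicate 1 the count was 2. DESeq2 on all libraries called this circle alone. In the test across all 3 stages 9 circRNAs of the set passed (1.02%, with 1.14% of all tested), from Egfr, Pde4d, A430107O13Rik, Cacna1c, Gbe1, Fancl, Slc10a7, Fndc3b and Tgfbr2. The count was 18 with DESeq2, 61 with no filter on low counts and 60 with a mean of 20 reads or more. It was 4 with column totals alone and 3 with a replicate block. Without D4 replicate 1 or 2 the count was 4 and 1, without D0 replicate 1 or 2 it was 18 and 22, and without D8 replicate 1 or 2 it was 18 and 26.

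Grouped by the function of the parental gene, the set was described by lists that were drawn up with earlier results of these data known. For comparison with the calls of each list, edgeR called 3.27% of all circRNAs tested between D4 and D0 and 1.49% between D8 and D0. Of 29 transcription factors of fat cell development with a circRNA in the table, 16 had a circle in the set, 21 circles in all, among them Foxo3, Runx1, Zeb1, Ebf1, Prdm16 and Zfp521, a zinc finger protein of preadipocytes. By stage mean, 11 of the 21 were highest on D0, and the median log2 ratio of D4 over D0 was -0.45 and of D8 over D0 -0.49, against -0.08 and -0.11 over the whole set and -0.06 and -0.03 over all 1407 circRNAs tested. Scaling by edgeR's TMM factors in place of column totals would raise these ratios by 0.09. In edgeR's test 0 of the 20 tested passed in either comparison with D0, with 6 and 5 at an unadjusted p under 0.05, and DESeq2 called 0 as well. After Nfix, the highest levels were those of 2 overlapping circles of Glis3, a Krüppel-like zinc finger factor. The circle of exon 4 (chr19:28605363-28606476, minus strand) had 4616 and 2445 circCPM at D0, 2949 and 3697 at D4, then 2160.0 and 2033 at D8, and that of exons 3 and 4 had 1926 and 1764 circCPM at D0, 2229 and 2592 at D4, then 882 and 1046 at D8. Both had their D8 libraries below the other 4.

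Chromatin regulators and cofactors had a circle in the set for 40 of 75 genes, 53 circles with median log2 ratios of -0.03 for D4 and 0.01 for D8 over D0. Between D4 and D0 the Med13l circle rose and the Zfp827 circle fell, and between D8 and D0 the Whsc1 circle fell, while no other of the 49 tested passed. After Med13l and Phf21a, the highest level was that of the exon 2 circle of Setbp1, which binds the SET protein, with 3089 and 2816 circCPM at D0, 2508 and 2737 at D4, then 4209.7 and 4421 at D8. Its D8 libraries were the highest.

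Protein kinases and phosphatases gave 58 circles from 48 of 99 genes, with medians of 0.14 and 0.04. Apart from the Egfr circle, which rose, and the Stk35 circle, which fell on D4, none of the 45 tested on this list passed, and the receptor kinase genes Tgfbr2 and Acvr2a are counted with TGF-beta signalling. Insr, the insulin receptor, gave a circle of its exon 2 (chr8:3258383-3258934, minus strand) with 2059 and 1362 circCPM at D0, 2368 and 1848 at D4, then 4364 and 3454 at D8, the highest after Hipk3. Both D8 libraries were above the other 4, and the difference from D0 did not pass (log2 fold change 1.29, SE 0.31, adjusted p = 0.0902). The Hipk3 circle also missed the threshold between D4 and D0 (log2 fold change 0.95, SE 0.21, adjusted p = 0.0573), with adjusted p-values of 0.0301 to 0.241 over the alternatives.

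Regulators of small GTPases and genes of the actin cytoskeleton had 46 circles from 28 of 66 genes. Their medians were 0.03 on D4 and 0.26 on D8 over D0, and 19 were highest on D8, where 290 of the whole 1012 were. Of the 46, 10 are Arhgap10 circles, 9 of them highest on D8. Of the 40 tested the Arhgef40 circle fell on D4, and the Srgap1 circle and 1 Arhgap10 circle rose on D8. The circle of exons 2 and 3 of Arhgap12 had 3554 and 3590.2 circCPM at D0, 1718 and 2256 at D4, then 2931 and 3414 at D8, with both D4 libraries the lowest. Extracellular matrix and adhesion genes had 22 circles from 15 of 50 genes, the lowest share of circRNAs in the set among the lists with any (22.4%). Their medians were 0.26 and 0.05. The Fndc3b circle rose on D4 and D8, the Svep1 circle rose on D8 and the Ltbp1 circle fell on D4.

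TGF-beta and BMP signalling was represented by 12 circles of 8 genes out of 18, with medians of -0.27 and -0.33. On D4 edgeR called 3.27% of all circRNAs tested, and DESeq2 called 2 of the 12 circles of this list. In edgeR's test the circles of Acvr2a and Tgfbr2, receptors, rose on D4 and those of Smad6 and Ltbp1 fell. The other 8 tested did not pass. Among these, the leading circle of Smad4, the Smad protein shared by both branches, had 2192 and 1795 circCPM at D0, 1904 and 1728 at D4, then 2072 and 1125 at D8, and the stages overlapped. The exon 2 circle of Smad1, a Smad protein of BMP signalling, had 2956 and 1919 circCPM at D0, 882 and 408 at D4, then 529 and 849 at D8 (log2 fold change -1.82, SE 0.48, adjusted p = 0.0884), with both D0 libraries above the other 4.

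Genes of lipid, carbohydrate and amino acid metabolism had 16 circles from 11 of 33 genes, and the largest medians of the lists, 0.41 on D4 and 0.46 on D8 over D0. Only 2 of the 16 were highest on D0. The Bckdhb and Hibadh circles rose on D4, where 2.2% of all circRNAs tested were called higher. On D8 the Bckdhb and Gbe1 circles rose, where 1.21% of all tested were called higher. The other 12 of the 15 tested did not pass in these comparisons, and DESeq2 called 1 circle of the list in each. The circRNAs of Lpl, Lipe and Cd36, genes of fatty acid release and uptake, and of Lpin1 were not among the 16, since each had fewer than 2 reads in a library.

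Ubiquitin and SUMO genes had 56 circles from 46 of 91 genes, with medians of 0.04 and 0.02, and of the 48 tested on this list the March3 circle passed, on D4. The Fancl circle described above is from a gene outside the list. The most abundant was a circle of Ube3a, a ubiquitin ligase, with 1959.5 and 3466 circCPM at D0, 3297 and 3673 at D4, then 3019.5 and 3059 at D8. Ube2w, a conjugating enzyme, followed after March3 with 1162 and 1548 circCPM at D0, 1672 and 2184 at D4, then 1477 and 1796 at D8. RNA-binding and decay genes had 50 circles from 31 of 68 genes, with medians of -0.07 and -0.11, and of the 41 tested on this list the Cnot6l circle passed, on D4. Among the 50 are the 5 circles placed at Eif4e3, whose parental gene is uncertain. The list does not hold Rod1, whose circle passed as well. Genes whose circRNA has been studied in other mammalian cells had 33 circles from 22 of 37 genes, led by the Nfix, Hipk3 and Pvt1 circles. Of these 30 tested, edgeR called the Fndc3b circle on both days, and DESeq2 called 2 on D4, those of Fndc3b and Tulp4, and the Fndc3b circle on D8.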

How the data were processed

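Preadipocyte RNA at 3 stages, 2 libraries each, was depleted of rRNA and linear RNA and sequenced. The authors trimmed reads with fastp, aligned them with BWA-MEM to mm9, called back-splice junctions with CIRI2 and kept those that reached 2 reads in each replicate of at least 1 stage, and the deposited values are raw counts of back-splice reads. Per the submitters' processing notes, FastQC 0.11.9 and HISAT2 2.2.0 were also used, in roles that are not given in the sources used here. Replicates were biological per the study, and p-values measure the spread between 2 libraries a stage.

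From these counts circCPM was computed with the column total of each library. Tests used edgeR 4.0.16 (quasi-likelihood, TMM, filterByExpr with a minimum count of 10 and total of 15) on all 6 libraries in R 4.3.3, with Benjamini-Hochberg adjustment over the 1407 circRNAs tested and SE as the log2 fold change divided by the root of F. The study used DESeq2's likelihood ratio test, and DESeq2 1.42.0 was an alternative. The script was tested on simulated data. Exons came from GENCODE M1 on NCBIM37, the assembly of mm9, and copies from blastn 2.17.0. The alternatives changed scaling, filter, libraries, block and detection rule. The members, the gene lists and the choice of comparisons were made with earlier results of these data known. Named were the 12 highest means, the 10 largest called folds a direction, the 5 smallest and 6 largest ratios, the 5 most abundant absent from circBase, the genes with the most circles and 3 per list. The longest and shortest spans were named too. The other called circRNAs, circles named for a change of leader or at the threshold, and the shares of circles in Fndc3b, Slc10a7 and Pvt1, were singled out after their values were seen. Some items that the rule would name are not reported here.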

Additional observations from a re-analysis of the deposited data

How the results depend on the processing

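The number of circRNAs in the set was 887, 645 and 336 when 3, 5 or 10 reads were required in every library and 2137 when 2 reads in either replicate of every stage sufficed. It was 925 with every library thinned to 30110 reads, and 1092 to 1165 without 1 library. With the stricter minimums the share of reads was 67.9, 61.5 and 49.7%, against 70.3%, and the genes with several circles numbered 97 with a minimum of 5 reads. The median level on D0 was 353 circCPM with TMM scaling, against 368. The share absent from circBase was 11.99% at a mean of 10 reads or more, and reverse-complementary flanks were found in 8.399% with matches of 100 bases and in 3.85% with 500 bases searched.

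Counts of called circRNAs depended on the settings more than their direction did. Across the stages 9 passed, against 18 with DESeq2, 4 with column totals alone, 61 with no filter on low counts, 60 with a mean of 20 reads or more, and 1 to 26 without 1 library. Between D4 and D0 32 passed, against 22 with DESeq2, 19 with no filter, 48 with a mean of 20 reads or more and 2 to 37 without 1 library. With column totals alone, 20 were higher and 13 lower. With a mean of 20 reads or more, 23 were higher and 25 lower. Between D8 and D0 12 passed, against 7 with no filter, 30 (16 higher and 14 lower) with a mean of 20 reads or more, 0 with edgeR on the D0 and D8 libraries alone (125 at an unadjusted p under 0.05, and 9 with DESeq2 on all libraries) and 3 to 14 without 1 library. Between D8 and D4 1 passed, against 2 with a mean of 20 reads or more and 0 to 2 without 1 library. The causes were not tested. In fits without 1 library, the lone library of its stage was assumed to vary like the others.

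The labels do not say whether replicate numbers pair the libraries across stages. The deviations of same-numbered libraries correlated with r = 0.04, 0.07 and 0.05. Counting error at low counts can hide a shared deviation, so these values do not settle whether the numbers pair the libraries. With a replicate block the counts were 3 across the stages, 14 between D4 and D0, 3 between D8 and D0, and 0 between D8 and D4 (89 at an unadjusted p under 0.05, and 1 with DESeq2 without the block). Of 624 alternative values of the 45 called fold changes, 407 stayed on the same side of the threshold, 217 lost the call and 0 changed direction. With 2 libraries a stage and as few as 2 reads behind a value, small differences were not detectable.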

Other observations

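Seed matches of 3 miRNAs were counted in the spliced sequence of the circles whose ends lie in an annotated transcript, the back-splice junction included. The mature sequences, from RefSeq's mouse assembly GRCm38.p6, have bases 2 to 8 in capitals.
mmu-miR-17-5p: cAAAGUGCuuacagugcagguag
mmu-miR-30c-5p: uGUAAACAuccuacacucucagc
mmu-miR-130a-3p: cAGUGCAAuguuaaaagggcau
The complement of the seed was found in 23 circles of the set for miR-17-5p (2.44%, with 4.13% of the other circRNAs), in 36 for miR-30c-5p (3.82%, with 3.13%) and in 26 for miR-130a-3p (2.76%, with 3.22%). Among circRNAs with a mean of 10 reads or more, the shares of the set and of the others were 2.44 and 2.45% for miR-17-5p, 4.31 and 1.23% for miR-30c-5p, and 3.02 and 1.84% for miR-130a-3p. No circle of the set held more than 2 matches of a seed. A match is a description of letters and not a site.

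Of the 714 circles of coding sequence alone, 265 had a length that is a multiple of 3 (37.1%), and of the 1936 others of that kind 741 had (38.3%). Among the 690 circRNAs at 0 in a single library, the 0 fell in D0 replicate 1 for 153, D0 replicate 2 for 139, D4 replicate 1 for 80, D4 replicate 2 for 123, D8 replicate 1 for 91 and D8 replicate 2 for 104. The D0 libraries also had the fewest back-splice reads, 30110 and 32310, against 41658 to 50672 in the others. The part of library size in these counts was not tested.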
